A study of Mus musculus with 2 samples.

Results

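The endothelial cells described here were picked from the single-cell library of KPCA.FSTKO tumors by 7 genes that line vessels: Pecam1, Cdh5, Kdr, Emcn, Tie1, Egfl7 and Flt1. A barcode was a member when these genes gave at least 5 UMIs and at least 0.2% of its UMIs. A UMI, a unique molecular identifier, stands for 1 captured transcript. A member also had fewer than 5 UMIs of the macrophage genes Csf1r, C1qa, C1qb and C1qc, and less than 0.1% of its UMIs from the keratins Krt7, Krt8, Krt18 and Krt19. Of 11826 barcodes in the series, 7582 were from this library. Filtering on mitochondrial UMIs (under 20%) and on genes found kept 6777 of these, and 110 passed, or 1.62% (95% Clopper-Pearson interval 1.34 to 1.95). The same rule in the second library, KPCA.FSTKO_hFSTL3, gave 19 of 4041, or 0.470% (0.283 to 0.733). The gate genes chose these cells, so their levels are given as a description and nothing is tested with them.

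KPCA is a mouse ovarian cancer line whose changes include Trp53 R172H and overexpression of Ccne1 and Akt2. KPCA.FSTKO lacks the follistatin gene Fst, and KPCA.FSTKO_hFSTL3 is a single stable clone of it that was given human FSTL3 on a pcDNA3.1 plasmid. All mice were female C57BL/6J of 12 to 16 weeks that received the cells into the peritoneal cavity, and both lines lack Fst only in the grafted cells, not in the host. The tumors, omental by their labels, were taken at day 10, and 4 were pooled for each library. Endothelial cells of such a tumor come from the host mouse, although the label names fallopian tube epithelial cells as the cell type of both samples. Each line has a single library, so nothing was tested between them. Intervals are at 95% (exact Poisson for a level, conditional binomial for a ratio of levels) and cover counting error only.

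Endothelial cells form the inner wall of every blood and lymph vessel. When a tumor signals with VEGF, cells at the front of a sprout become tip cells, which carry Esm1, Apln and Dll4, while capillary, arterial, venous and lymphatic cells each have their own genes. Endothelial cells are also a main site of BMP9 and BMP10 signalling, through the receptor ALK1 (Acvrl1), its co-receptor endoglin (Eng) and SMAD1 and SMAD5. Activins, which follistatin and FSTL3 bind and neutralize, use the type II receptors Acvr2a and Acvr2b and are dimers of the chains encoded by Inhba and Inhbb.

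The members held 1158197 UMIs, with a median of 5665 per cell (595 to 59123), against 17530 in the other 6667 kept cells. The largest cell held 5.10% of the members' UMIs, and the 5 largest held 21.8%. Among the members the median gate share was 0.710% of UMIs and the median gate count 41. The lowest share inside the gate was 0.208% and the highest outside it was 0.196%. In all 153 cells had enough gate UMIs and too low a share, and 5 had the share with too few UMIs. A further 12 cells passed on the 7 genes but were removed, 10 for keratins and 2 for macrophage genes. No member of KPCA.FSTKO was among the 12 barcodes that the libraries shared. The median mitochondrial share was 4.08% in the members and 3.53% in the other cells. Fst, the gene deleted in the graft, stood at 5.70 CPM in keratin-rich cells and 11.2 in all other kept cells of KPCA.FSTKO, and at 21.3 in those of KPCA.FSTKO_hFSTL3, with no library of an intact graft to set them against.

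**Figure D1:**
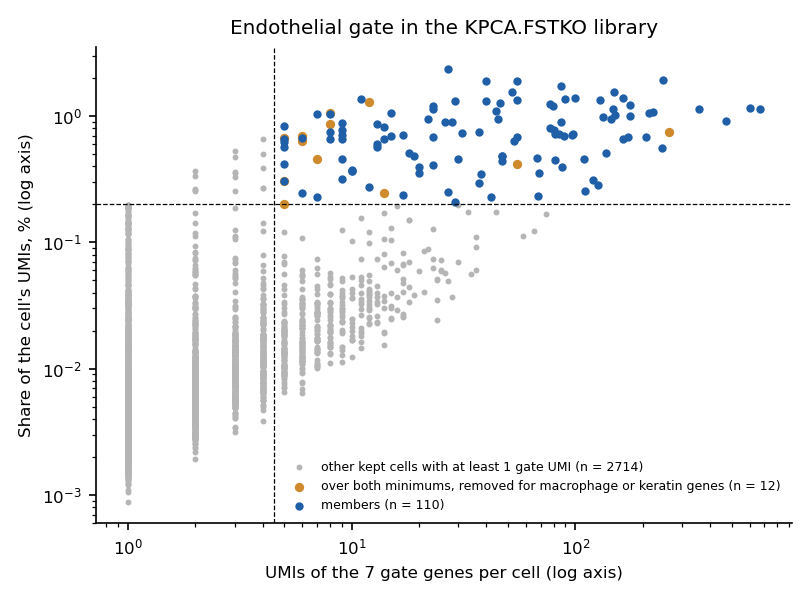
UMIs of the 7 gate genes in each kept cell of KPCA.FSTKO that had at least 1 of them (horizontal axis) against their share of the cell's UMIs (vertical axis), both on log axes, with 1 point per cell and dashed lines at the 2 minimums. The 110 members reach 671 gate UMIs and 2.37%, the 12 orange cells were removed for macrophage or keratin genes, and the 3941 other cells with no gate UMI are not drawn.

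The label was checked against 22 endothelial identity genes that the gate did not use. At least 3 of them were found in 99 of 110 members (90%, 82.8 to 94.9), with a median of 11 genes per member, and in 18 of 19 members of KPCA.FSTKO_hFSTL3. Among the other gated classes the share was highest in mural-gated cells (genes given below), at 41.7% (5 of 12), followed by fibroblasts at 33.6% (132 of 393). It was 22.5% (172 of 763) in macrophage-gated cells, whose median UMI number of 13066 was above that of the members. Keratin-rich cells, with a median of 29206, had 15.9% (69 of 433). Thinned to 2000 UMIs per cell, the shares were 92.0% (81 of 88) in members, 0.531% (4 of 754) in macrophages and 0.265% (1 of 377) in fibroblasts. The remaining 11 members had fewer than 3 identity genes, a median of 1139 UMIs and 4.70% of the members' UMIs, and in 3 of them Flt1 was the only gate gene seen. For these 11 cells the label rests on little, and they are named below where a value depends on them.

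Genes of other cell types were also present. Mural cells, the pericytes and smooth muscle cells that wrap vessels, were marked by Rgs5, Kcnj8, Abcc9, Higd1b and Notch3, and 32 members had at least 3 UMIs of these. Fibroblast genes (Col1a1, Col1a2, Col3a1, Dcn, Lum, Pdgfra) reached 3 UMIs in 31 members, and 16 had both. The 47 members with either were deeper, with a median of 11640 UMIs against 2905 in the other 63. 506 Rgs5 UMIs lay in 15 members, and its level of 437 CPM (a gene's UMIs per 1000000 UMIs of the same cells) was 33.3 times that of the other kept cells but 0.125 times that of the 12 mural-gated cells. Of the macrophage list the rule itself capped 4 genes, and the 4 it did not use were all lower than in the other cells, with Adgre1 at 0. Of the wider mural list 8 of 10 genes were higher than in the other cells, and none was highest in members. T and NK cell genes made up 1 UMI in all members, and 554 of 571 Hbb-bs UMIs, from hemoglobin, lay in a single member. Whether mural or fibroblast transcripts came from attached cells, doublets or free RNA was not tested, so values are also given for the 63 members with under 3 UMIs of each set, called the low-stroma members.

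Promoters are shown for the 4 identity genes with the highest level over other cells among those with at least 100 UMIs and a RefSeq entry, because their levels set the members furthest from the other cells. They are Myct1 and the genes of a guidance receptor (Robo4), of the main claudin of endothelial tight junctions (Cldn5) and of a surface lectin (Clec14a). Each run is 300 bases (250 before to 50 after the start) on the gene's strand in GRCm38.p6. Capitals mark letters searched on either strand, and no marked matches overlap. For the ETS factors the letters were GGAAG. For the SOX factors they were ACAATG. For the GATA factors they were AGATAA. For the FOX factors they were GTAAACA.
Myct1 (chr10:5593478-5593777, plus strand): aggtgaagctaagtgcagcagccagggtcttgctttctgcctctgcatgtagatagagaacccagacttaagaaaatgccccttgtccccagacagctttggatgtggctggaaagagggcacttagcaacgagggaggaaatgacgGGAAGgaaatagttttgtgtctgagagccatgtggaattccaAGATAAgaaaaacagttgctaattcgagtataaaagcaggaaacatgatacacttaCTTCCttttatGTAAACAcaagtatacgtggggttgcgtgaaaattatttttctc
Robo4 (chr9:37401722-37402021, plus strand): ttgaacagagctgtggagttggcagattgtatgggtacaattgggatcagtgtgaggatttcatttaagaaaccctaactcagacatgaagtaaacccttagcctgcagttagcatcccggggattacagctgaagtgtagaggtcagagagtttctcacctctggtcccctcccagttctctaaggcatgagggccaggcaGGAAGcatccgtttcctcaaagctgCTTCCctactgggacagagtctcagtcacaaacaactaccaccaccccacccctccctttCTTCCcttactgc
Cldn5 (chr16:18776597-18776896, plus strand): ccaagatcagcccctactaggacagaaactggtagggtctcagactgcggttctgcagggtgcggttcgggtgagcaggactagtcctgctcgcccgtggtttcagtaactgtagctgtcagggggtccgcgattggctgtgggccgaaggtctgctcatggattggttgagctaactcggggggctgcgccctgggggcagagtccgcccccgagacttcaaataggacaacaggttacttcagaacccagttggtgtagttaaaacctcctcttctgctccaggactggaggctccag
Clec14a (chr12:58269209-58269508, minus strand): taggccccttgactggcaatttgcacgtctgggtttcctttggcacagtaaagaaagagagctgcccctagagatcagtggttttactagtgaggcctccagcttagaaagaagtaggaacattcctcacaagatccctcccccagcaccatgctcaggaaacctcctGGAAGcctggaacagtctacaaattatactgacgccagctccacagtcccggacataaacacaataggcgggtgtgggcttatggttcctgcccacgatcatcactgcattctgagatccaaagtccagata
GGAAG was found 2 times for Myct1, 3 times for Robo4, 1 time for Clec14a and not for Cldn5. It is also in 71.4% of all 32851 promoters of this length. Myct1 alone had AGATAA, at 61 bases before the start, and GTAAACA, 6 bases after it, letters that 11.2% and 3.65% of all promoters hold. ACAATG, in 12.6% of all promoters, was in none of the 4. Among the 9 identity genes with an entry, 5 held GGAAG, 3 AGATAA, 1 GTAAACA and none ACAATG.

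To describe levels, UMIs were summed over the members and over the other 6667 kept cells. A gene was called higher with at least 100 UMIs in all, at least 20 in members and a CPM ratio of 4 or more, and lower with a ratio of 0.25 or less. Of 14329 genes that reached the minimum, 753 were higher (5.26%) and 1890 lower (13.2%). Many lower calls concern rare genes. In simulated sums with counting error only, 4.43% of unchanged genes were called lower and 0% higher. With at least 20 UMIs expected in the members there were 425 lower of 7063 (6.02%). The gate chose the cells, so these are sizes in 1 library and not tests.

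All 21 identity genes with enough UMIs were higher, against the 5.26% of all genes, and all 21 were higher in members than in any other gated class. Those classes held only cells with fewer than 5 gate UMIs, a choice that itself lowers endothelial genes in them. For 17 of them the level was at least 4 times that of the highest class, which held for 127 of the 2321 genes with at least 100 member UMIs (5.47%). The median ratio was 7.40 on the log2 scale, where all genes had 0.07. Cldn5 had 1102 UMIs in 67 members, at 951 CPM (896 to 1009) against 1.11 in the other cells. Myct1 stood at 224 against 0.163 CPM, a ratio of 1371 (894 to 2201). Plvap, which forms the diaphragms of leaky, fenestrated endothelium, stood at 831 CPM (779.8 to 886) against 2.05. It was found in 64.8% of thinned members and in none of 754 thinned macrophages. Among the transcription factors, the ETS factor Erg had 242 CPM against 0.830, and Sox18 135 against 0.163. Fli1 (446 against 18.2 CPM), Esam and Ecscr were less particular, at 1.78, 2.28 and 3.32 times the highest other class.

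The 20 genes with the highest ratios that the gate did not use ran from 1637 for Sncaip to 415 for Mmrn2. Besides Myct1, Robo4, Cldn5, Sox18, Clec14a and Mmrn2 of the identity list they held Adgrl4, an adhesion receptor of growing vessels, with 1360 UMIs in 94 members and 121 in all other cells. Ldb2, Cyyr1, Ccdc85a, Cd200, Fam167b, Tmem252 and Trp53i11 were also among them. So were Gpihbp1, Esm1, Prnd, Dll4 and Aplnr, treated below. Adgrl4 was at 1174 CPM, and 91.8% of its UMIs in kept cells lay in the 110 members, which hold 0.815% of all UMIs. In all, 58 of 2321 genes with at least 100 member UMIs had over 50% of their UMIs in the members.

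**Figure D2:**
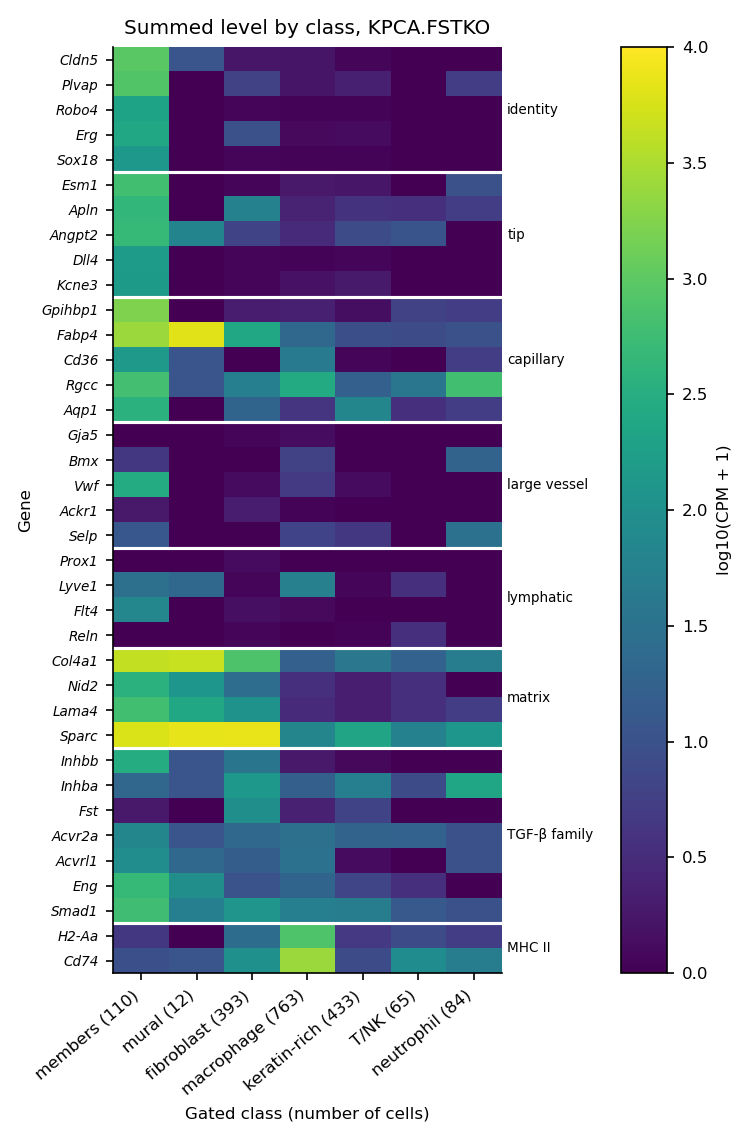
Summed level of named genes (rows, by group) in the members and in 6 other gated classes of KPCA.FSTKO (columns, number of cells in brackets), as log10(CPM + 1) by colour. Identity and tip genes are brightest in the members column, from 135 CPM (Sox18) up, Col4a1 and Sparc are as bright in mural cells, and Prox1, Reln and Gja5 are dark throughout the members column.

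Tip cell genes stood out. Of 14 with enough UMIs, 13 were higher, with a median of 5.19 (log2). Esm1, or endocan, a proteoglycan that marks tip cells under VEGF, lies at chr13:113209659-113218098 (GRCm38) and had 720 UMIs in 60 members. Its level was 622 CPM (577 to 669) against 0.865 in the other cells and 752 (648 to 869) in members of KPCA.FSTKO_hFSTL3. After thinning 42.0% of members (31.6 to 53.0) had an Esm1 UMI, against 0.133% of macrophages. Apln, the apelin peptide, stood at 449.8 CPM (76.6 times the other cells), and Angpt2, which loosens vessels through the Tie2 receptor, at 477 (60.4 times). Dll4, the Notch ligand of tip cells, stood at 154 against 0.298 CPM. Cxcr4, a chemokine receptor, stood at 104 CPM in members and 119 in neutrophils. The list's other gene, Plod2, a collagen hydroxylase, stood at 0.505 times (0.387 to 0.647). In the low-stroma members, where 3.75% of 14281 genes were higher and 22.5% lower, 9 of 13 were higher, and Esm1 was at 630.4 CPM.

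Capillary genes, 6 of 8 higher without the gate gene Kdr, included several of fatty acid uptake. Gpihbp1 carries lipoprotein lipase to the capillary surface and lies at chr15:75596628-75599481. It had 1949 UMIs in 74 members, at 1683 CPM (1609 to 1759) against 2.20 in other cells. Fabp4, a fatty acid carrier of endothelium and fat cells, stood at 2520.3 CPM, but the 12 mural-gated cells had 6696. Cd36, a fatty acid receptor, was at 147 CPM (30.4 times the other cells) and Cd300lg at 163 (338 times). Aqp1, a water channel, was at 356 (8.95 times). Car4, a carbonic anhydrase of lung and heart capillaries, gave 2 UMIs, and Lpl itself had 31, 28 of them in 1 cell. Of the wider lipid list 7 of 17 genes were higher, among them Scarb1, the HDL receptor, at 205 CPM and 6.34 times the highest other class. In the low-stroma members the counts were 6 of 8 and 9 of 17.

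Tip and capillary genes were each found in most members, and often in the same cells. At 2000 UMIs per cell, with 22 shallower members left out, 63 of 88 members (71.6%, 61.0 to 80.7) had at least 3 tip genes and 56 (63.6%, 52.7 to 73.6) at least 3 capillary genes, a list that holds the gate gene Kdr. Without Kdr it was 53 (60.2%, 49.2 to 70.5), a choice made after seeing the data. None of 754 macrophages had 3 tip genes and 0.928% had 3 capillary genes with or without Kdr. Fibroblasts had 3 tip genes in 6.10% (23 of 377) and 3 capillary genes without Kdr in 1.06%. Keratin-rich cells had 3 tip genes in 2.12%. Both sets, without Kdr, were met in 40 members, or 63.5% of those with tip genes and 75.5% of those with capillary genes. Among all 88 members the shares were 60.2% with capillary and 71.6% with tip genes. The overlap is thus near what the 2 shares alone would give. At the deposited depth, the shares were 81.8% and, without Kdr, 66.4% of 110. At that depth fibroblasts had 69.0% and 11.5%, and macrophages 4.19% and 12.7%. Keratin-rich cells had 3 tip genes in 56.8%, so the tip share at full depth has a high background. Shares moved with the depth and the number of genes asked for. Kdr included, with at least 2 genes they were 88.6% and 79.5%, and at 1000 UMIs 43.1% and 47.1%.

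**Figure D3:**
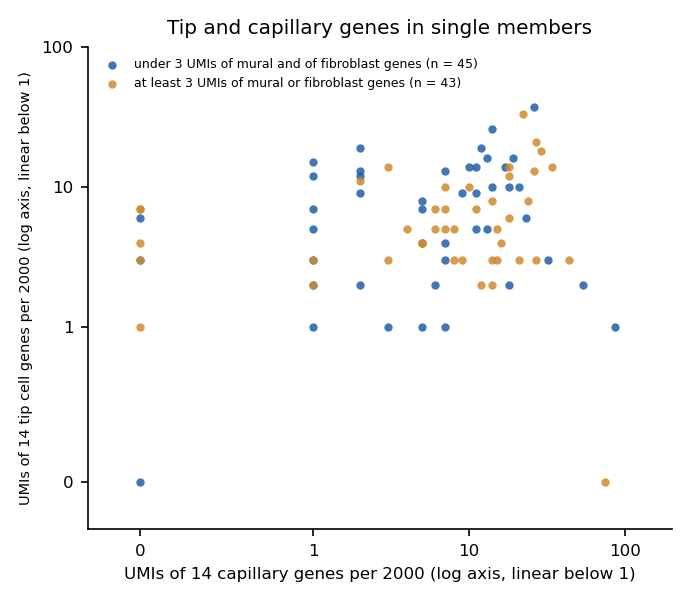
UMIs of the 14 capillary genes, the gate gene Kdr included (horizontal) and of the 14 tip cell genes (vertical) in each of 88 members thinned to 2000 UMIs, on log axes that are linear below 1, with 1 point per cell. Most cells lie at several UMIs of both lists, whether they had under 3 UMIs of mural and of fibroblast genes (45 cells, blue) or not (43, orange).

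Genes of large and lymphatic vessels were mixed, and several were sparse. Of the arterial list 4 of 11 were higher and 2 lower, where 5.26% of all genes were higher and 13.2% lower. The endothelin gene Edn1 stood at 172 CPM against 0.986 and lay in 26 members, and Sox17 at 63.9 against 0.298, whereas connexin 40 (Gja5) had no UMI and Bmx 4. Mgp, at 652 CPM, had 491 of its 755 UMIs in 1 cell. Of 13 venous genes 3 were higher: Vwf (291 CPM against 0.787, in 71 members), Tmem252 and Lrg1. Nr2f2, the factor of venous identity, stood at 154 CPM, 1.20 times the other cells (1.03 to 1.39), and at 85.2 CPM in low-stroma members. The venular genes Ackr1, Selp and Sele gave 1, 13 and 0 UMIs. After thinning, 14.8% (13 of 88) had 3 arterial and 22.7% (20 of 88) 3 venous genes, but fibroblasts, which should lack such identity, had 15.9% and 28.6%, so neither share exceeds that background. Prox1, the master factor of lymphatic endothelium, and Reln had no UMI, which allows levels up to 2.59 CPM. Lyve1 had 33 UMIs, at 6.53 times the other cells (4.45 to 9.26) in the 99 members with at least 3 identity genes. Flt4, also a gene of sprouting blood vessels, stood at 69.9 CPM. Of the lymphatic list 3 of 6 were higher and 2 lower, with a median of 1.97 (log2). Low-stroma members had 0 of 5 higher and 4 lower, against 3.75% and 22.5% of all genes. No thinned member had 3 lymphatic genes, which allows a share of up to 3.41% by a floor of 3 counts (4.11% by Clopper-Pearson) for cells with such UMIs at this depth.

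Of the VEGF family outside the gate, 3 of 8 genes were higher (Flt4, Nrp1 and Pgf) and 2 lower. Flt4, for VEGF receptor 3, had 69.9 CPM against 0.142 in the other cells, and the co-receptor Nrp1 had 598, 9.08 times the other cells. Nrp2 had 258 CPM (3.97 times). Vegfa was lower in members, at 50.1 CPM (38.0 to 64.7) against 228, as was Vegfb at 13.8 against 70.0. Placental growth factor Pgf, at 150.2 CPM, was 9.61 times the other cells, and Vegfc 0.932 times (0.645 to 1.30). The VEGF receptor genes Flt1 and Kdr, which chose the cells, had 3028 and 378 CPM. Tek (Tie2) and Ptprb, the phosphatase that acts on it, were at 104 and 806 CPM, while its ligand Angpt1 was at 22.4 against 125 in fibroblasts.

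Of the Notch genes 6 of 11 were higher. Notch4, the endothelial receptor, stood at 117 CPM (105 times the other cells), Notch1 at 130.4 (6.49 times) and the ligand Jag2 at 65.6 (159.5 times), beside Dll4. Mfng, which tunes Notch receptors, was at 57.0 CPM (41.0 times). The target Hey1 had 36 UMIs, and the sixth, Notch3, belongs to mural cells, where it was at 630.4 CPM against 73.4 in members. In low-stroma members 3 of 8 were higher without Notch3, which chose them, against 3.75% of all genes. Guidance receptors, 10 of 14 higher, were led by Robo4 (208 CPM), the semaphorin receptor Plxnd1 (408, 11.6 times) and Plxna2 (321, 19.2 times). Sema6a at 209 CPM was 74.2 times the other cells. Of the pair Efnb2 and Ephb4, artery and vein markers in development, neither passed 4 times, with 1.92 and 3.41.

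Basement membrane genes, 11 of 15 higher, were shared with mural cells. Col4a1, a chain of type IV collagen, gave 4927 UMIs in 103 members, at 4254 CPM (34.5 times the other cells) against 4619 in mural cells. Sparc was at 5964 CPM and Col4a2 at 2609. The laminin chain Lama4 (604 CPM, 2.54 times mural cells) and nidogen Nid2 (352, 2.84 times) were more particular to members, but no gene of the list reached 4 times the highest other class. Lama5, the laminin of mature endothelium, stood at 82.0 CPM, 0.778 times (0.629 to 0.951). The count was the same, 11 of 15, in low-stroma members. Of 12 junction genes outside the gate 8 were higher, among them Gja1 (connexin 43) at 288 CPM and Pcdh17 at 678. Ocln, for occludin, had no UMI.

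The genes by which inflamed endothelium catches leukocytes gave few UMIs. Vcam1 had 22 UMIs, at 19 CPM (11.9 to 28.8) against 72.9 in the other cells, and Icam1 had 6, at 5.18 against 11.5. Neither reached the rule for lower. Sele, Madcam1 and Glycam1 had none. Icam2, which resting endothelium carries, stood at 137 CPM (129 times). The chemokine Cxcl12 was at 79.4 (6.78 times), in 24 members, while Ccl2 was lower at 16.4 against 96.1. The T cell chemokines Cxcl9 and Cxcl10 gave 17 and 5 UMIs. In all, 4 of 15 genes of leukocyte adhesion and trafficking were higher, among them Cd34 and Podxl of the identity list, and 3 lower. Of all genes 5.26% were higher and 13.2% lower.

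MHC class II genes were all lower, 7 of 7. Cd74 had 10 UMIs in 8 members, or 8.63 CPM against 2535 in macrophages, H2-Aa had 4 and the master factor Ciita none. No member had 3 class II genes, which allows up to 2.73% of members by a floor of 3 counts (3.30% by Clopper-Pearson), against 72.0% of macrophages. MHC class I genes stayed near the other cells, none past 4 times in either direction. B2m was at 812 CPM (1.34 times) and H2-K1 at 430.0 (1.41 times). Of 16 interferon-stimulated genes only Rsad2 was higher, at 36.3 CPM, and 1 was lower. These counts are near the shares of all genes, 5.26% higher and 13.2% lower. In low-stroma members 0 of 16 were higher and 3 lower, against 3.75% and 22.5% of all genes. PD-L1 (Cd274) was lower, with 3 UMIs and 2.59 CPM (ratio 0.107, 0.0221 to 0.313) against 396 in neutrophils. Entpd1 (CD39), which breaks down extracellular ATP, was at 167 CPM, 14 times the other cells but 0.215 times neutrophils. Nectin2 (118 CPM), Lgals9 and Tnfsf10 were higher too.

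Among the ligands and antagonists of the TGF-beta family the highest ratio was that of the activin B chain. Inhbb (chr1:119415465-119422248, minus strand) gave 343 UMIs in 63 members, with at most 37 in 1 cell. The level was 296 CPM (266 to 329) against 3.06 in the other cells, a ratio of 96.9 (83.8 to 112), and 34.7 in fibroblasts, the next class. The 110 members held 44.3% of the Inhbb UMIs of all kept cells. After thinning, 39.8% of members (29.5 to 50.8) had an Inhbb UMI, against 4.24% of fibroblasts and 0.133% of macrophages. Low-stroma members had 263 CPM, and members of KPCA.FSTKO_hFSTL3 199 (147 to 263), so the gene was high in both libraries.

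The activin A chain went the other way. Inhba had 23 UMIs, at 19.9 CPM (12.6 to 29.8) against 64.6 in the other cells and 229 in neutrophils. Members of KPCA.FSTKO_hFSTL3 had 20.3 CPM. The antagonists were at the edge of detection. Fst had 1 UMI in the members of each library, against 96.9 CPM in fibroblasts of KPCA.FSTKO, with a ratio to the other cells of 0.0773 (0.00196 to 0.431). Fstl3 of the mouse had 5 UMIs (4.32 CPM, 0.0966 to 0.696 times the other cells) and 3. The human transgene was not analysed here.

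Of the other ligands, only Bmp6 was called higher, at 31.9 CPM (21.1 times, in 14 members). Bmp2 had 22 UMIs in 12 members, 38.8 times the other cells (22.9 to 63.5), too few in all for the size rule, and Bmp4 had 11. Tgfb1 stood at 155 CPM (2.13 times), and Gdf15 was lower with 2 UMIs. Among 14 ligands and antagonists of enough UMIs, the size rule called 2 higher and 2 lower (Fst and Gdf15), and the median ratio was -0.18 (log2). Of all genes 5.26% were higher and 13.2% lower. In low-stroma members 1 of 14 was higher and 6 were lower, against 3.75% and 22.5% of all genes.

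Of 13 receptors with enough UMIs 3 were higher, the BMP9 receptor Acvrl1, its co-receptor Eng and the decoy Bambi. Eng stood at 478 CPM (439 to 519.9), 66.8 times the other cells, and Acvrl1 at 90.7, 22.5 times (18.1 to 27.7). Bambi was at 44.9 CPM, in 22 members. The type II receptor Bmpr2 had 317 CPM, 3.31 times (2.98 to 3.68), and Tgfbr2 187, 2.68 times. Acvr2a (chr2:48814109-48903269) had 79 UMIs in 40 members, at 68.2 CPM and 2.36 times the other cells (1.86 to 2.95). After thinning, 20.5% of members (12.6 to 30.4) had a UMI of it, against 5.84% of macrophages. Acvr2b had 14 UMIs, at 12.1 CPM and 8.61 times (4.62 to 14.8), too few for the size rule. The activin type I receptor Acvr1b was at 7.77 CPM, with 9 UMIs. Members of KPCA.FSTKO_hFSTL3 had 77.3 CPM of Acvr2a, a ratio to KPCA.FSTKO of 1.13 (0.648 to 1.89), and 16.3 of Acvr2b, a ratio of 1.35 (0.323 to 4.28), both intervals holding 1.

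Of 13 SMAD and target genes with enough UMIs 3 were higher, Smad1 and Smad5 of the BMP arm and the target Id3. A further gene was lower, where 5.26% of all genes were higher and 13.2% lower. In low-stroma members 2 of 13 were higher and 2 lower, against 3.75% and 22.5% of all genes. Smad1 was at 589 CPM, 9.16 times the other cells (8.46 to 9.91) and 4.81 times fibroblasts, and Smad5 at 93.2, 4.10 times. Smad2 and Smad3, of the activin arm, were 1.71 and 1.25 times the other cells. The target Id3 was 4.08 times and Id1 1.40 times, while Id2 was lower at 0.221 times.

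**Figure D4:**
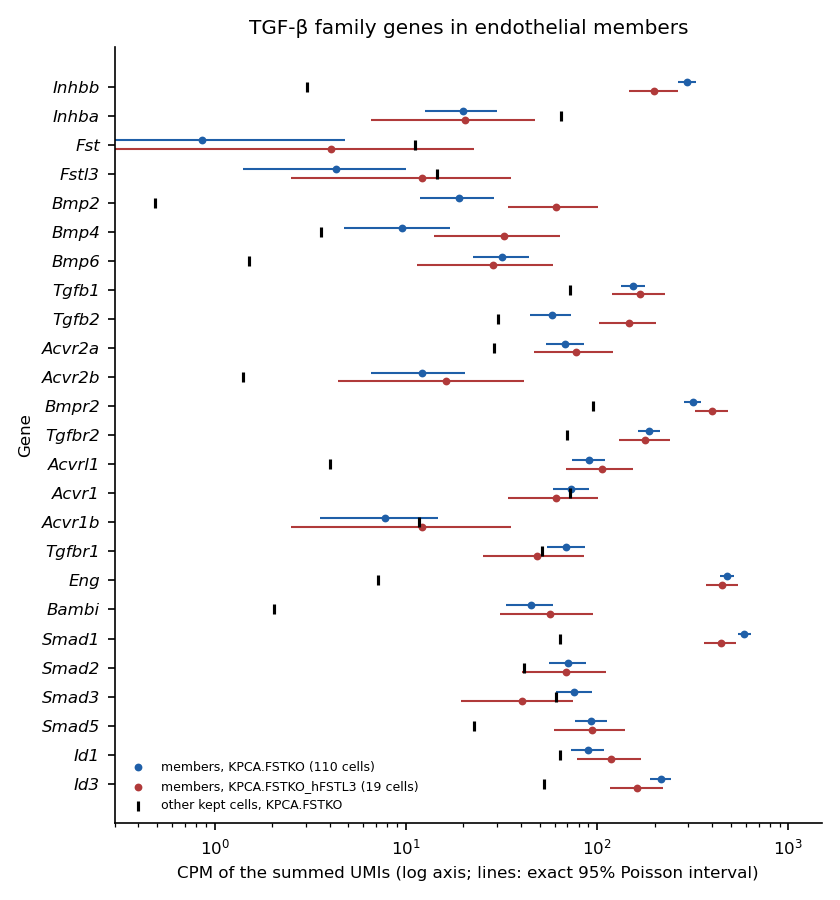
Level (CPM of summed UMIs, log axis) of TGF-beta family genes in the members of each library, with exact 95% Poisson intervals as lines, and in the other kept cells of KPCA.FSTKO as black ticks. Inhbb, Eng, Acvrl1 and Smad1 lie far right of the ticks in both libraries, and Inhba lies left of its tick. Interval ends under 0.3 CPM, for Fst, are cut off by the axis.

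Members also carried signals for mural cells and receptors of vascular tone. The pericyte attractant Pdgfb was at 276 CPM (247 to 308), 19.9 times the other cells and 14.6 times the next class, and Pdgfd at 287, 11.6 times. Igfbp7 stood at 4655 CPM, in 108 of 110 members, and Igfbp3 at 2226, 2.79 times keratin-rich cells. Wnt2 and Rspo3 had no UMI. In the vascular tone list 11 of 13 genes were higher, among them the apelin receptor Aplnr (115 CPM), the adrenomedullin receptor genes Calcrl (385) and Ramp2 (423) and its ligand Adm (285). S1pr1 was at 287 CPM and the nitric oxide synthase Nos3 at 73.4, in 39 members. Ednrb at 398 was 0.303 times mural cells. Of 12 hemostasis genes 3 were higher: Vwf, Tfpi and Entpd1.

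Transcription factors, 14 of 21 higher, included the hypoxia factor Epas1 at 283 CPM (66.0 times) but not Hif1a (1.09 times, 0.983 to 1.21). Tcf4 was at 2660.2 CPM and Ets1 at 492. The flow-induced factors Klf2 and Klf4 were 1.01 and 0.356 times the other cells. In low-stroma members 7 of 19 were higher, against 3.75% of all genes.

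Glycolysis and growth genes were level or lower, with 1 exception. Of the hypoxia and glycolysis list only Adm was higher, and 3 of 13 were lower (Vegfa, Car9 and Bnip3). Pgk1 stood at 0.296 times and Ldha at 0.323 times the other cells. No proliferation gene of 16 was higher and 4 were lower, Ccnb2, Birc5, Ube2c and Aurka. Mki67 had 36 UMIs in 11 members, at 31.1 CPM against 63.9, and Top2a 70 in 21. After thinning, 7 of 88 members (7.95%, 3.26 to 15.7) had at least 3 of the genes, against 31 of 754 macrophages (4.11%). Low-stroma members had a summed proliferation level of 655 CPM and the other 47 had 253. Immediate-early genes, which dissociation can induce, had a median ratio of -1.0 (log2), with Fos at 0.425 and Egr1 at 0.258 times.

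Between member cells, variation was measured as the Fano factor, variance over mean, of UMIs in the 88 thinned members. Over 1100 genes with at least 30 thinned UMIs the median was 1.42, where independent counting gives 1. The Fano factor grows with a gene's level, so it describes each gene and gives no order of genes of unlike level. Ctla2a, a protease inhibitor gene, stood at 27.9, with up to 100 of 2000 UMIs in 1 cell and a UMI in 77 cells. Spp1 stood at 24.5 and Fabp4 at 15.3 (62 cells, up to 48 UMIs). Gm42418, Malat1, Tmsb4x and the mitochondrial mt-Atp6, mt-Co1, mt-Co2 and mt-Co3 were also among the 15 highest values. Col3a1, Fbln2, Mgp and Acta2, also among them, had a UMI in 26, 18, 16 and 6 of the 88 cells. Of the Spp1 UMIs, 803 of 1502 lay in the 11 members with under 3 identity genes. Those 11 members also held 180 of 528 Col3a1 UMIs, and 164 Fbln2 UMIs against 122 in the other 99 members. Flt1 stood at 7.65 and Esm1 at 4.75. Erg (1.08) and Dll4 (0.96), with few UMIs per cell, stood near 1.

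The 19 members of KPCA.FSTKO_hFSTL3 held 245918 UMIs, with a median of 10062, and 1 cell gave 15.2% of them. Genes with at least 100 UMIs over both libraries were compared. Of 2793, 45 were at least 2 times higher in KPCA.FSTKO_hFSTL3 (1.61%) and 166 at least 2 times lower (5.94%). In simulated sums with counting error only, 1.59% of unchanged genes were called lower and 0% higher. Library and graft cannot be told apart. The identity list had 7996 CPM in KPCA.FSTKO and 7324 in KPCA.FSTKO_hFSTL3 for the summed genes, none higher and 1 of 19 lower (Clec14a).

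Nox4, an NADPH oxidase of vessels, had the highest ratio, 4.09 (3.25 to 5.14), from 143 to 586 CPM, and 2.99 in low-stroma members. In the other kept cells it was lower in KPCA.FSTKO_hFSTL3, by -1.66 (log2). Pdgfd was at 287 and 695 CPM, a ratio of 2.43 (2.01 to 2.93), and the guidance receptor Robo1 at 100.2 and 228, a ratio of 2.27 (1.62 to 3.15). Low-stroma members gave ratios of 3.02 for Pdgfd and 11.4 for Robo1. For Robo1, 99 of 116 UMIs in KPCA.FSTKO lay in the 32 members with mural genes, so its low-stroma ratio rests on few UMIs. Cxcl12 (2.15) and Tgfb2 (2.53) were the other list genes past 2 times besides the smooth muscle genes Acta2 and Tagln. In KPCA.FSTKO, 96.0% of the Tagln UMIs lay in the 32 members with mural genes, Tagln turned to -1.64 (log2) with a gate of 10 UMIs and 0.4%, and the low-stroma members had no Acta2 UMI. The other genes among the 8 highest ratios were Hist1h2bc, March3, Myl9, AI506816, Lars and Gse1.

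Among lower genes, the tip cell gene Kcne3, a potassium channel subunit, and the apelin receptor Aplnr stood at 28.5 and 24.4 CPM against 153 and 115. Their ratios were 0.186 (0.0738 to 0.392) and 0.212 (0.0766 to 0.475), and 0.179 and 0.150 in low-stroma members. These levels rest on 7 UMIs of Kcne3 and 6 of Aplnr. Egln3, Slc2a1, P4ha1 and Ndrg1 of the hypoxia list were lower, 4 of 7 with enough UMIs, with Egln3 at 0.229 times (0.108 to 0.429). In the other kept cells Egln3 was also lower in KPCA.FSTKO_hFSTL3, by -1.45 (log2). Vegfa had 58 UMIs in the members of KPCA.FSTKO, too few for the size rule, and none in those of KPCA.FSTKO_hFSTL3. A floor of 3 counts makes it at least 4.11-fold lower. Aqp1 (0.286), Scarb1 (0.336) and Tgfbr3 (0.444) were lower as well. The gate gene Flt1 was 0.534 times (0.481 to 0.593) and the gate gene Kdr 1.6 times (1.32 to 1.93), both within the limit of 2. Both genes chose the cells of each library, so their ratios are a description only.

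Of the 8 lowest ratios, Hmga2 was carried by 60 of 110 members and the others by 5 to 22. Serpine2 had 366 UMIs in 15 members of KPCA.FSTKO, 364 of them in members with mural genes, and none in KPCA.FSTKO_hFSTL3, at least 25.9-fold lower. Ralyl and Pcdh9, at least 15.1-fold and 14.9-fold lower, had 49.1% and 26.7% of their UMIs in 1 member. Baiap2l1 had 60.7% in 1 member and 90 of 140 UMIs in the 11 members with under 3 identity genes. Hmga2, a gene of the tumor cells at 1447 CPM in the other kept cells, stood at 484 and 12.2 CPM, Efna5 at 113 and 4.07, and the hemoglobins Hba-a1 and Hbb-bs made up the rest. Pancreatic acinar genes were found in all 19 members of that library, at a median of 0.112% of UMIs against 0.693% in its other cells, and in 46 of 110 members of KPCA.FSTKO. Their part in these differences was not tested.

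**Figure D5:**
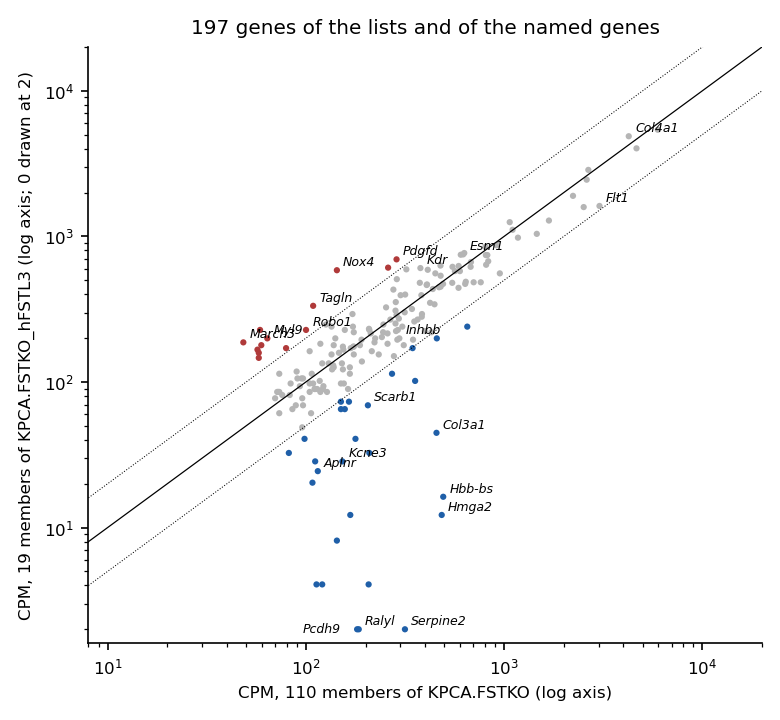
Level of 197 named genes with at least 100 UMIs over both libraries, in the 110 members of KPCA.FSTKO (horizontal, CPM) and the 19 of KPCA.FSTKO_hFSTL3 (vertical, CPM), on log axes, with equality as a solid and 2 times as dotted lines. The 13 red genes are at least 2 times higher and the 29 blue ones at least 2 times lower in KPCA.FSTKO_hFSTL3, and genes with no UMI there are drawn at 2 CPM.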

How the data were processed

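Single-cell libraries (10X Genomics) of pooled omental tumors were analysed, 1 per line, from matrices of UMI counts per gene and barcode deposited by the authors. The counts were raw. The processing notes name Cell Ranger 3.1.0 and mm10, whereas the matrix header names Cell Ranger 7.2.0. The libraries held 168214773 and 80391504 UMIs over 7582 and 4244 barcodes.

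Barcodes with mitochondrial UMIs under 20% and 201 to 7999 genes were kept. No doublet caller was run and doublets were not removed. Other classes were gated by their own markers, and no clustering was done. CPM is a gene's summed UMIs per 1000000 UMIs of the same cells. Thinning drew 2000 UMIs per cell (seed 1), leaving out shallower cells. With 1 library per line no test was run, and 95% intervals (exact Poisson, Clopper-Pearson, conditional binomial) cover counting error only. A count of 0 was read against a floor of 3 counts, 2.59 CPM in members of KPCA.FSTKO and 12.2 in those of KPCA.FSTKO_hFSTL3.

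Genes named were the gate genes, the gene lists, the 20 highest ratios, the 15 highest Fano factors, the 8 highest and 8 lowest ratios between libraries, and genes the study names. The members and the lists were chosen with earlier results of these data known. Gene positions are of GRCm38, and promoters are RefSeq's on GRCm38.p6. The size rules were tested on simulated sums with counting error only and no variation between cells. Both rules recovered 100% of the raised and lowered genes (8-fold over other cells, 4-fold between libraries). They called 0% of unchanged genes higher, but called 4.43% lower over other cells and 1.59% lower between libraries. Scripts ran in Python 3.11.15 with pandas 2.3.3, scipy 1.17.1 and numpy 2.4.6, figures were drawn with matplotlib 3.10.9, and edgeR 4.0.16 in R 4.3.3 gave TMM scaling only. Alternatives changed the gate, filters, scaling, reference cells and minimums. Some items of the study are not reported here.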

Additional observations from a re-analysis of the deposited data

Results flagged for a closer look

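Of the named genes, 3 stood on opposite sides of the other kept cells in the members of each library, and the difference was not tested, since each line has 1 library. For Ccnb2, a mitotic cyclin, the log2 ratio of members over other cells was -2.71 (95% interval -4.16 to -1.59, 6 UMIs) in KPCA.FSTKO and 1.70 (1.02 to 2.30, 22 UMIs) in KPCA.FSTKO_hFSTL3. For Jun, an immediate-early transcription factor, it was -0.499 (-0.66 to -0.35, 348 UMIs) and 0.857 (0.55 to 1.14, 97 UMIs). For Mgp, a matrix protein of arteries and fibroblasts, it was 0.387 (0.28 to 0.49, 755 UMIs) and -1.31 (-1.71 to -0.95, 59 UMIs), and 491 of the 755 UMIs lay in 1 member of KPCA.FSTKO.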

How the results depend on the processing

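No paired analysis was possible because each line has 1 library, and for the same reason no replicate could be left out. The number of members, 110, went to 73 with a gate of 10 UMIs and 0.4%, and to 63 without members that had 3 UMIs of mural or fibroblast genes. The 753 higher genes became 1686 with a minimum ratio of 2. The 1890 lower genes became 1236 with a gate of 3 UMIs and 0.1%, 3228 without members with mural or fibroblast genes, 3407 with a ratio of 2 and 425 with at least 20 UMIs expected, a rule chosen after seeing the data. Leaving out the deepest barcodes or the members with few identity genes was also chosen after seeing the data. TMM scaling moved all log2 ratios by 0.25 over the other cells and 0.02 between libraries. Thinned to 1000 UMIs, shares with 3 genes were 43.1% (tip), 3.92% (arterial), 8.82% (venous) and 47.1% (capillary, the gate gene Kdr included). With 2 genes asked for they were 88.6%, 33.0%, 50% and 79.5%. With the stricter gate the capillary share was 77.6%. That gate asks for more UMIs of a set that holds Kdr, so the value is not independent of the gate. It was not recomputed without Kdr. Between libraries the 45 higher genes became 81 by the mean over cells, 93 with a minimum of 50 UMIs and 227 with a ratio of 1.5. The 166 lower genes became 91 with the stricter gate, 399 with 50 UMIs and 390 with a ratio of 1.5.

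Against the mean of the gated classes, list medians turned to -0.0614 (venous), -0.46 (MHC class I), -0.92 (interferon-stimulated) and -0.64 (mural), and the mural median to -0.56 without members with mural or fibroblast genes. Of single genes over other cells (log2), Nr2f2 turned to -0.59 (stricter gate), -0.60 (without members with mural or fibroblast genes), -0.10 (mean over cells) and -0.0614 (gated classes). Id1 turned to -0.13 against the gated classes. Fstl3 turned to 0.23 with the looser gate, and Kitl to -0.0238 without members with mural or fibroblast genes. Tagln between libraries turned to -1.64 with the stricter gate. Of the values recomputed, 137 of 330 gene values over other cells and 48 of 160 list medians moved beyond their counting interval. Among them Klf2, level with the other cells, went to -0.99 without members with mural or fibroblast genes and to -1.93 against the gated classes. Other genes and lists named were not recomputed, and genes within 0.25 (log2) above the other cells turn under TMM scaling. The cause was not tested.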
